A study of Mus musculus with 2 samples.

Results

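The genes described here are 9 regulators of the macrophage lineage: the transcription factor genes Spi1 (which encodes PU.1), Cebpa, Cebpb, Cebpd, Runx1, Maf, Mitf and Tfec, and Csf1r, the receptor for macrophage colony-stimulating factor (M-CSF). They were chosen by gene name, and every transcribed segment carrying one of these names in either of the libraries was taken. The 9 genes were among 11054 gene names found in at least 1 library, and they held 287 of 43122 segments in control and 366 of 51365 segments after IL-4. Of the 9 members, 8 were listed under their own symbol, and Spi1 was listed under its older symbol Sfpi1 and was found through the alias column. The assay was global run-on sequencing (GRO-seq) of nascent RNA, in which engaged RNA polymerases extend their transcripts with a bromine-tagged nucleotide and only that RNA is captured. The cells were wild-type mouse bone marrow-derived macrophages (BMDMs) from mice of 8 to 12 weeks, differentiated over 6 days with L929 fibroblast supernatant as the source of M-CSF. The control group got no further cytokine, and the IL-4 group received 20 ng/ml interleukin-4 for 1 h. For each condition 2 run-on reactions were pooled into 1 library, so there was no replicate (n = 1), no test and no p-value, and a difference between the libraries cannot be told apart from a difference between preparations.

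PU.1 and the C/EBP factors open chromatin at macrophage enhancers and keep the lineage fixed, RUNX1 works with PU.1 on early myeloid genes, and c-MAF is a regulator of mature macrophages. MITF and TFEC belong to the MiT family of basic helix-loop-helix factors, which bind E-box sequences in genes of lysosomes and of osteoclasts, cells that share a precursor with macrophages. M-CSF signalling through CSF1R keeps BMDMs alive, and the Csf1r gene is a classical target of PU.1, RUNX1 and C/EBP factors. The comparison of control with IL-4 asks which of these lineage genes were transcribed more or less after 1 h of the cytokine that drives alternative polarization.

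Promoter sequences of 250 bases before to 50 after the start were taken from RefSeq (GRCm38.p6), and 8 promoters of 5 of 9 members were used. Csf1r was left out of this search. Shown first are the promoters of the 3 genes whose values over the gene body differed by at least 2-fold, each 5′ to 3′ on the gene's strand, with Mitf given by its most upstream start. Capitals mark the letters of the PU.1 core GAGGAA, the RUNX core TGNGGT, the C/EBP pattern TTGCNNAA and the STAT6 pattern TTCNNNNGAA, searched on both strands.
Tfec, chr6:16898392-16898691, minus strand: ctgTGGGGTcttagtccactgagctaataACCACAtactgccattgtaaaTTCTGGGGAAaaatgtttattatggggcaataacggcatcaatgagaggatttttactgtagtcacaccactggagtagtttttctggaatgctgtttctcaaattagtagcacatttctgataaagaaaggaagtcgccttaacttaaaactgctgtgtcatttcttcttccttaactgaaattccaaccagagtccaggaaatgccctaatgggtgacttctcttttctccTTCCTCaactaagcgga
Mitf, chr6:97806808-97807107, plus strand: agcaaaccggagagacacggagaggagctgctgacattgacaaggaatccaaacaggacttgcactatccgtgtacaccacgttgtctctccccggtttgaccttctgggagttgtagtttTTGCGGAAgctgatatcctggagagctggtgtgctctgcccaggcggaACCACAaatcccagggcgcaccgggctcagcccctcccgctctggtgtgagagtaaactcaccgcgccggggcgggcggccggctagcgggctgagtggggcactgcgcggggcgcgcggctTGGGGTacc
Cebpb, chr2:167688665-167688964, plus strand: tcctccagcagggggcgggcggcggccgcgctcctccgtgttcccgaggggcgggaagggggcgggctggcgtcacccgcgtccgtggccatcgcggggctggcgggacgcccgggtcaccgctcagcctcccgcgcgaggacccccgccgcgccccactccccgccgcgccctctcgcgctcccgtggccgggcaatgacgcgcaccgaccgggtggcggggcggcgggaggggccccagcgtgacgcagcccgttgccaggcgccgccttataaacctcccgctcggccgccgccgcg

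Positions below are those of the first base of a match, read 5′ to 3′ on the gene's strand and counted from the start. The Tfec promoter held 1 STAT6 pattern at -200, a pattern found in 6.95% of 32851 promoters of the same length. It also held RUNX cores at -247 and, on the opposite strand, at -221 (45.8% of promoters hold at least 1). A PU.1 core lay on the opposite strand at 34 (28.3%). The Mitf promoter held a C/EBP pattern at -129 (10.8%), RUNX cores at 42 and, on the opposite strand, at -81, and the MAF motif TGCTGA at -222 (19.5%). The Cebpb promoter held none of these patterns within this window but a TATA box (TATAAA, in 13.6% of promoters) at 22, was 80.7% G or C and had 50 CpG dinucleotides against a median of 7 over all promoters. Among the promoters not printed, the upstream Runx1 promoter had 3 RUNX cores on the opposite strand at 17, 29 and 37 and the E-box form CACGTG at -71 (7.15%). Its downstream promoter had a PU.1 core on the opposite strand at -46. The Cebpa promoter had a TATA box at -30. A match is a run of letters and does not show that a factor was bound there.

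Each segment carries a score, deposited to 1 decimal, whose scaling to depth is not given in the sources used here, so sequencing depth was unknown. A range given as a rounding range is what scores within 0.05 of the printed value allow; it is not a replicate error. The libraries differed as a whole. Segments after IL-4 were longer (median 312 against 227 bp), had a lower median score (0.2 against 0.3) and covered 18.5 Mb against 10.8 Mb. Ratios of IL-4 over control were therefore centred on the median gene. Of 12 macrophage markers, a list that includes Csf1r, 12 had own-strand segments over the gene in control and 11 with IL-4 (all but Msr1). The highest scores by name summed to 25.0 and 22.6, leaving out Adgre1, which had no segment under its name. None of 7 fibroblast, 4 mast cell or 4 dendritic cell markers had a segment in either library, and none of 6 B cell, 5 T cell or 4 erythroid markers had one over the gene on its strand. Of 10 granulocyte markers 3 had such segments in each library, and the list's summed highest scores were 5.4 in control and 10.1 with IL-4, of which Csf3r made up 3.9 and 9.4. Elane, Prtn3, Ly6g and Mmp8 had no segment in either library. The part of such cells in the results below was not tested, and in a bulk sample fewer cells of a type and less RNA per cell cannot be told apart.

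Tfec stood out among the 9 genes. By the highest score carrying the gene's name, 1 of 9 members (Tfec) was at least 2-fold higher after IL-4 and 0 of 9 were at least 2-fold lower, against 8.06% higher and 8.62% lower among 8879 genes with a value in both libraries. Without centring those shares were 5.98% and 24.3%, and Runx1 joined as lower. The median centred log2 ratio of the members was 0.09, beside 0 for all genes by construction (SD 0.78 over genes). A second measure summed score times length over the annotated gene on its own strand, per kb of gene. By that measure 2 of 9 members were at least 2-fold higher (Tfec and Mitf) and 1 was at least 2-fold lower (Cebpb), against 16.7% higher and 16.9% lower among 7142 protein-coding genes. The members' median was 0.20, beside 0 for all genes (SD 1.18). With 9 genes, these counts were near the background shares in each direction.

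**Figure D1:**
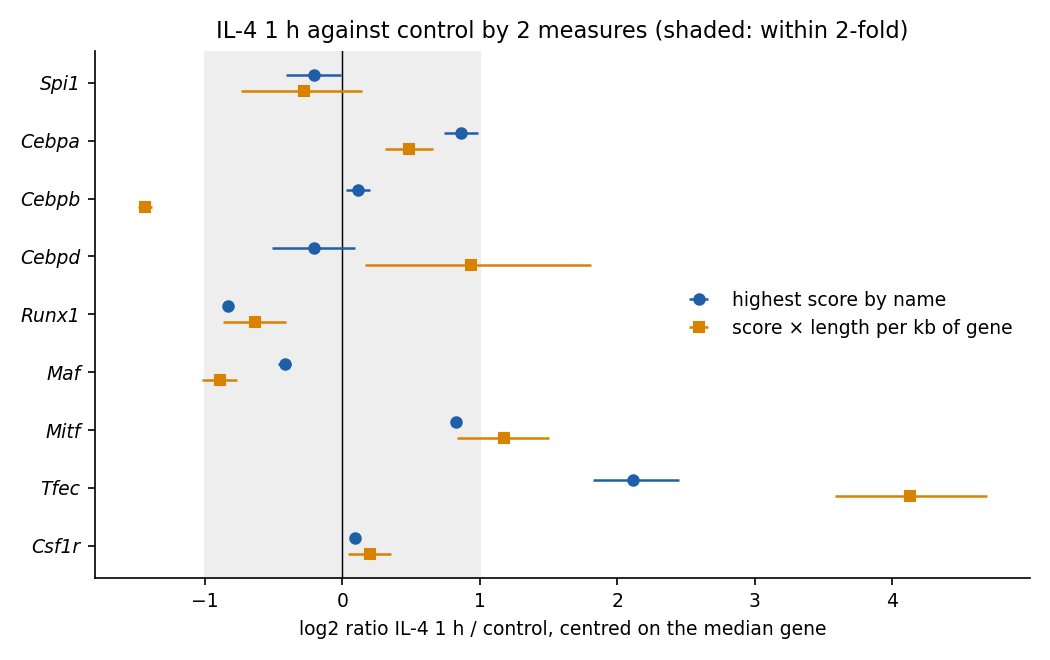
Centred log2 ratio of IL-4 1 h over control for each gene by the highest score (circles) and by score times length per kb of gene (squares), with rounding ranges as bars and the range within 2-fold shaded. Tfec lies outside the shaded range by both measures (2.12 and 4.13), Mitf (1.18) and Cebpb (-1.44) by the second only.

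Per kb of gene, the order of levels in control was Cebpb, Csf1r, Maf, Cebpa, Spi1, Runx1, Cebpd, Mitf and Tfec. The score times length ran from 3151 per kb for Cebpb through 539 for Csf1r, 403 for Maf, 392 for Cebpa, 132 for Spi1, 120 for Runx1, 46.9 for Cebpd and 35.9 for Mitf to 1.86 for Tfec. Neighbours whose rounding ranges overlapped in control were Maf with Cebpa, Spi1 with Runx1, and Cebpd with Mitf. Of 7142 genes, 14.7% lay at or below Tfec in control, whereas the other 8 members lay at or above 84.2% of genes. After IL-4 the order was Cebpb at 1264, Csf1r at 671, Cebpa at 596, Maf at 236, Spi1 at 118, Cebpd at 97.5, Mitf at 88.2, Runx1 at 84.0 and Tfec at 35.2 per kb. Csf1r overlapped with Cebpa there, and Spi1, Cebpd, Mitf and Runx1 overlapped each with the next. Tfec then lay at or above 80.7% of genes. Cebpb was the highest member and Tfec the lowest in both libraries. With its named segment alone, Cebpb had 1236 per kb in control and 615 with IL-4, the latter below Csf1r. Maf and Runx1 each stood lower in the order after IL-4.

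**Figure D2:**
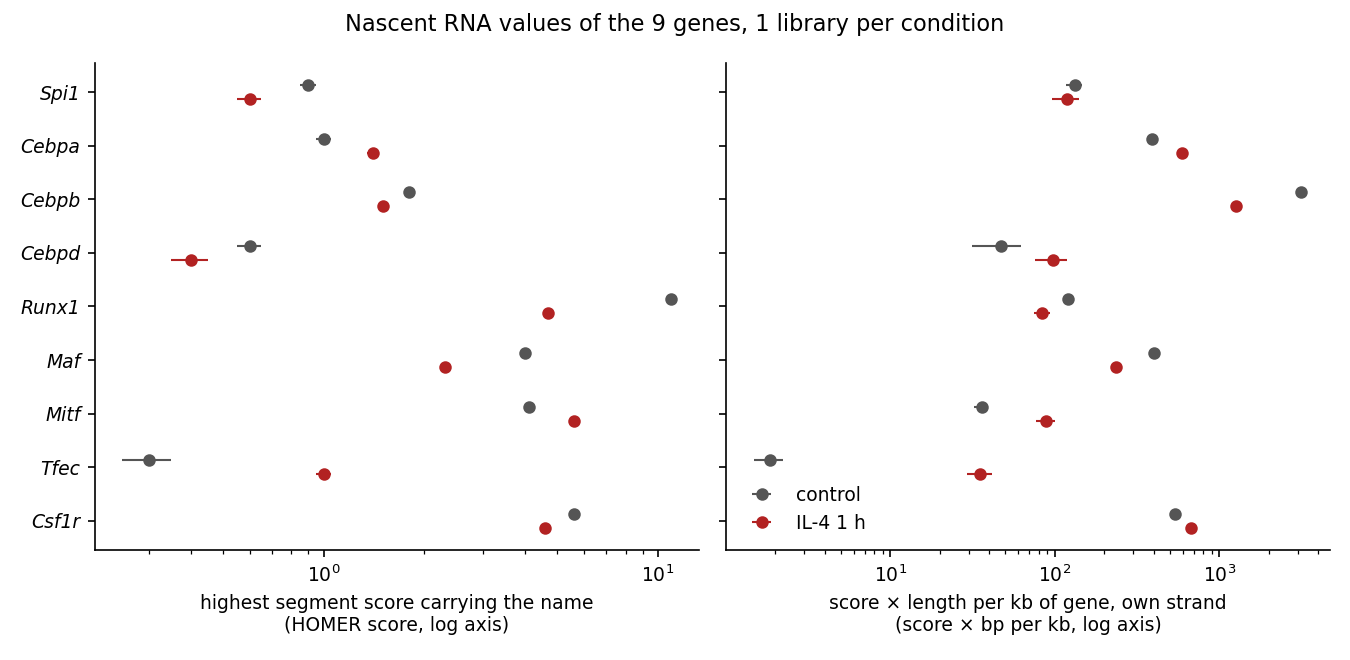
Highest segment score (left) and score times length per kb of gene (right) in control (grey) and after IL-4 (red), 1 library each, on log axes with rounding ranges as bars. The Tfec points are the farthest apart in both panels, at 0.3 and 1.0 on the left and 1.86 and 35.2 on the right.

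Tfec, a MiT family gene known for its expression in macrophages, lies on chromosome 6 (16833373-16898441, minus strand, ENSMUSG00000029553.10). In control 2 segments carried its name, one beginning 76 bp after the start with a score of 0.3 and one 7230 bp in with a score of 0.2. After IL-4 there were 32, of which 26 lay in the gene on its strand, 5 lay beyond its 3′ end and 1 lay on the opposite strand. The highest score was 1.0, on a segment 7180 bp from the start, in the first intron. The control segment at that place scored 0.2. The segment at the start scored 0.4, so the ratio at the start alone was small (centred log2 0.42 for the segment nearest the start). By highest score the centred log2 ratio was 2.12 (rounding range 1.82 to 2.45), a 4.33-fold difference. Over the gene body it was 4.13 (3.58 to 4.69), or 17.5-fold, and 28 of 7142 genes had a larger ratio.

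The additional Tfec segments ran along the whole gene, read here in 4 equal parts. In the first part there were 2 segments in control and 8 with IL-4, and the score times length was 7.43 and 33.2 per kb. The next parts in order held 0 segments in control and 5, 6 and 7 with IL-4. In the last part the value reached 73.2 per kb after IL-4, the highest of the 4 parts, and a segment with a score of 0.5 lay in the 3′ untranslated region. The highest scores in that part, 0.9 and 0.7, were on segments with midpoints in a simple repeat and a satellite repeat. The order of the parts without repeat segments was not tested. Past the 3′ end, 5 more segments reached 77.6 kb from the start. Segments whose midpoint fell in an annotated repeat made up 57.7% of the Tfec score times length after IL-4. Without all such segments the ratio was 3.72. Both control segments overlapped one after IL-4, and 2 of the 26 segments after IL-4 (7.69%) overlapped one in control. Over all segments after IL-4 that share was 51.9%. With 2 control segments in the gene, the low share for Tfec largely restates the segment counts. The other annotated starts of Tfec had no sense segment in either library.

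Mitf, the founding member of the same family, spans 214298 bp on chromosome 6 (97807052-98021349, plus strand, ENSMUSG00000035158.15). It had 65 segments in control and 132 with IL-4, all within the gene and on its strand. The highest score was 4.1 in control and 5.6 with IL-4, on overlapping segments 16210 and 16183 bp from the first start, a centred log2 ratio of 0.83 (0.80 to 0.86) and thus within 2-fold. Over the gene body the values were 35.9 and 88.2 per kb, a centred log2 ratio of 1.18 (0.83 to 1.51), whose rounding range reaches below 2-fold. Covered length in the gene was 14925 bp in control and 50894 bp with IL-4, so more of the gene was called. Of 55 overlapping pairs of segments, 42 were above and 10 below the centre of all pairs, with a median of 0.58, so the parts called in both libraries were also higher relative to all pairs.

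The Mitf difference was larger toward the 5′ end. Over 4 equal parts from 5′ to 3′ the centred log2 ratio was 1.34, 1.28, 0.78 and 0.14. The number of segments was 30 and 52 in the first part and 10 and 19 in the last. At the most upstream annotated start the sense segment scored 0.6 in control and 0.4 with IL-4. The start 122.747 kb further in had no segment in control and one of 0.1 after IL-4, and the starts 133.866 and 184.74 kb in, the last of them near the start known for the melanocyte isoform, had none from 50 bp before to 500 bp after them in either library. Just upstream of the window at the last of them a segment scored 0.3 in control and 0.4 with IL-4. Taking only the segment nearest to any start gave 0.6 and 0.1 for Mitf, a centred log2 ratio of -2.58, from segments at different starts.

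**Figure D3:**
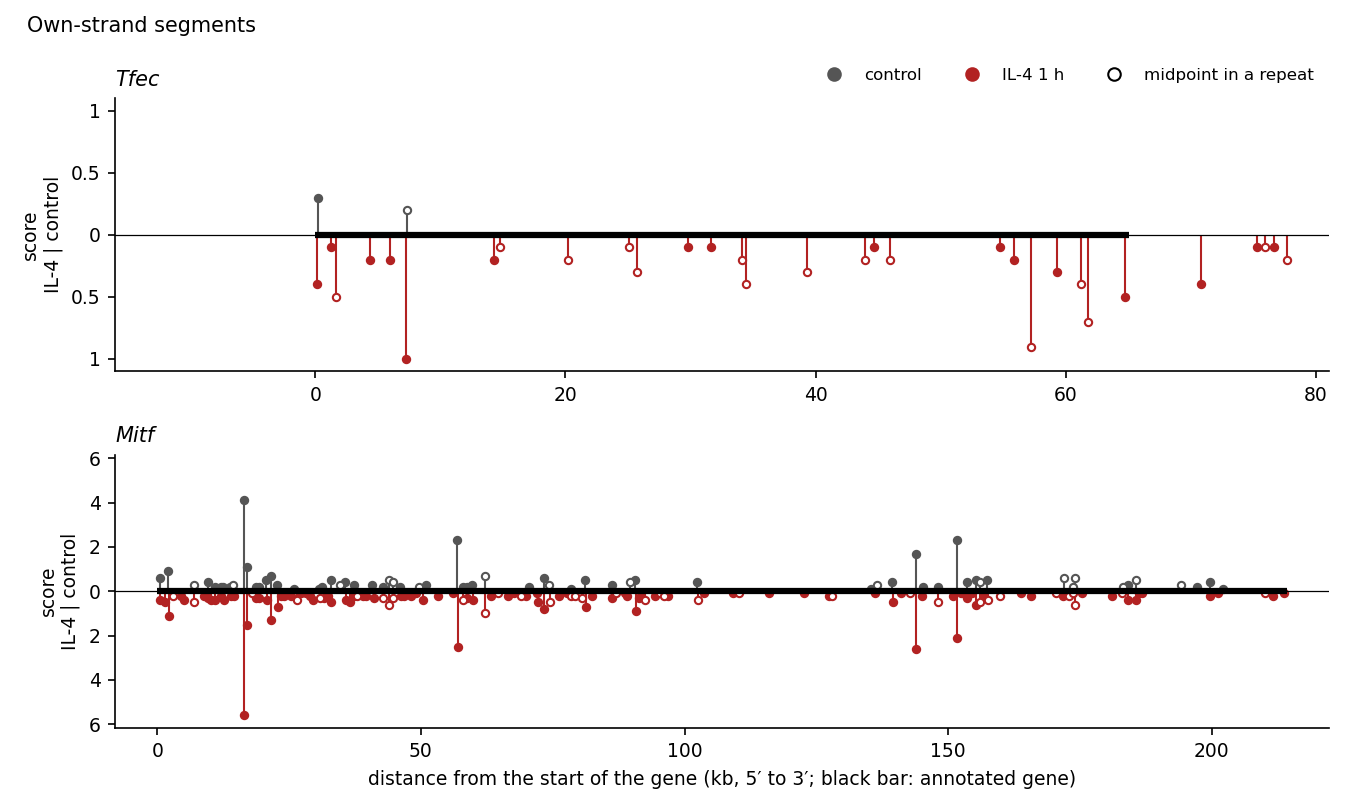
Own-strand segments of Tfec (top) and Mitf (bottom) by distance of their midpoint from the gene's start in kb, with control scores drawn upward and IL-4 scores downward, and open circles for midpoints in repeats. Beyond the gene only segments carrying its name are drawn. Tfec had 2 segments in control and 26 over the gene after IL-4, and Mitf 65 and 132.

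Cebpb, an early-response C/EBP gene of activated macrophages, is a single-exon gene on chromosome 2 (167688915-167690418, plus strand, ENSMUSG00000056501.3). The only segment with its name began 1 bp after the start in control with a score of 1.8 and 58 bp after it with a score of 1.5 with IL-4. By name the centred log2 ratio was 0.12 (0.03 to 0.20), and without centring -0.26. A second own-strand segment, over the 3′ end of the gene, carried the name of a neighbouring non-coding gene and scored 10.0 in control (167690131-167690525) and 4.0 after IL-4 (167690054-167690297). With it the values over the gene were 3151 and 1264 per kb, and the centred log2 ratio was -1.44 (-1.49 to -1.38). Without it, over the named segment alone, the ratio was -1.14, and that segment was 1033 bp long in control and 617 bp with IL-4. The highest own-strand score under any name gave -0.91. The direction for Cebpb thus depended on the segments taken, on whether length was counted and on centring. In the 15 kb past the end there were 7 segments in control and 2 with IL-4, at 101 and 12.9 per kb, with a ratio of -3.08. The 7 include the control segment of 10.0, which ran past the end, whereas the IL-4 segment of 4.0 ended within the gene. The highest score with IL-4 in these 15 kb was 0.3. The ratio of -3.08 thus depended on where the control segment of 10.0 ended, and it was not computed without that segment. Reads of a transcript that continues from Cebpb and of the neighbouring gene on the same strand cannot be told apart here.

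Cebpa, which is needed for the granulocyte and macrophage branch, lies on chromosome 7 (35119293-35121928, plus strand, ENSMUSG00000034957.10). Its highest score was 1.0 in control and 1.4 with IL-4, both on the segment over the coding exon. The centred log2 ratio was 0.86 (0.74 to 0.99), the highest of the C/EBP members by name and within 2-fold. Over the gene the values were 392 and 596 per kb and the ratio 0.49 (0.31 to 0.66). The segment on the opposite strand just upstream of the start, divergent from the gene, scored 0.4 in control and 0.2 with IL-4. The Cebpa sense segment thus had the higher score after IL-4 and the divergent one the lower. Where the segment nearest the start was used, the sense one in control was set against the divergent one after IL-4 and the ratio was -2.32.

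Cebpd, a further C/EBP gene known from acute-phase responses, is on chromosome 16 (15887286-15891031, plus strand, ENSMUSG00000071637.5). In control the highest score with its name, 0.6, was on a segment 65190 bp from the start, on the opposite strand and in a repeat within another gene, Spidr. That place scored 0.3 with IL-4, and the highest score there, 0.4, was on the segment at the start. Over Cebpd itself there were 4 own-strand segments in each library, with a highest score of 0.2 in control and 0.4 with IL-4. The gene-body values were 46.9 and 97.5 per kb, a centred log2 ratio of 0.94 with a wide rounding range of 0.16 to 1.81. By name the ratio was -0.21 (-0.51 to 0.09), so the direction for Cebpd depended on the distant segment. With own-strand overlap and the highest score it was 1.42, past 2-fold.

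Runx1, the core-binding factor that pairs with CBFB, spans 224684 bp on chromosome 16 (92601466-92826149, minus strand, ENSMUSG00000022952.17). Its name was carried by 107 segments in each library, 104 of them in the gene on its strand. The highest score was 10.9 in control and 4.7 with IL-4, at the same place 18660 and 18663 bp into the gene. By highest score the centred log2 ratio was -0.84 (-0.86 to -0.81), and over the gene, at 120 and 84.0 per kb, it was -0.63 (-0.87 to -0.41), both within 2-fold. The 4 highest control segments all had midpoints in repeats, 3 of them in simple repeats. Repeats of all kinds made up 74.9% of the Runx1 score times length in control and 66.3% with IL-4.

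Without repeat segments the highest Runx1 score was 1.4 in control and 1.6 with IL-4, the centred ratio by highest score turned to 0.51, and the ratio over the gene body was -0.25. The segment of 1.6 overlapped a control segment of 2.0 that was left out because its own midpoint lay in a simple repeat, so the turn rests on a repeat label that differed between the libraries at that place. Over all genes, overlapping segments in simple repeats had a median centred log2 ratio of -0.26 (2267 pairs, 18.9% at least 2-fold lower) and those outside repeats of 0.10 (19967 pairs, 10.1%). The part of the simple repeats in the Runx1 difference was not tested beyond leaving them out. Of 73 overlapping Runx1 pairs 23 were above and 49 below the centre. At the upstream promoter the first sense segment scored 0.3 in control and 0.2 with IL-4, beginning 349 and 416 bp from the start, and at the downstream promoter, 128.821 kb further in, it scored 0.3 and 0.4. The upstream and downstream promoters thus showed differences of 0.1, the smallest step of the score. Of the further annotated starts, the one 130.024 kb in had no sense segment in control and one of 0.2 with IL-4. The one 130.654 kb in had 0.3 and 0.2, the latter on the same IL-4 segment as at 130.024 kb. The segments there began 462 bp from that start in control and -408 bp with IL-4, at different places.

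Maf, which encodes c-MAF, lies on chromosome 8 (115682942-115707794, minus strand, ENSMUSG00000055435.6). The number of segments with its name was 45 in control and 30 with IL-4, and 15 lay in the gene on its strand in each. The highest score was 4.0 in control, over the 3′ untranslated region, where the segment after IL-4 scored 2.2. At the start the long segment scored 3.6 and 2.3, the latter being the highest with IL-4. By highest score the centred log2 ratio was -0.42 (-0.47 to -0.37). Over the gene, at 403 and 236 per kb, it was -0.89 (-1.02 to -0.77), a rounding range that reaches 2-fold. The lower values lay along most of the gene, with ratios of -0.89, -0.97, 0.16 and -1.57 over 4 equal parts from 5′ to 3′. In the parts with ratios of 0.16 (rounding range -0.61 to 0.75) and -1.57 (-2.39 to -0.91) each library had 2 segments. Beyond the 3′ end, on the same strand, 23 segments carried the Maf name in control and 12 with IL-4, reaching 280.3 and 192.4 kb from the start. Their scores summed to 7.9 and 2.5. Over the whole gene or by name, Maf was lower under all settings tried and past 2-fold under none.

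Spi1, the gene for PU.1, lies on chromosome 2 (91096096-91115756, plus strand, ENSMUSG00000002111.8). Its name was on 27 segments in control and 20 with IL-4, and 18 and 20 own-strand segments lay over the gene. The highest score was 0.9 in control and 0.6 with IL-4, a centred log2 ratio of -0.21 (-0.41 to -0.01). Over the gene the values were 132 and 118 per kb and the ratio -0.28 (-0.74 to 0.14), so the direction over the gene could not be told within rounding. The 4 equal parts had ratios of -0.38, 0.06, -0.71 and 0.16 with no order along the gene. At the annotated main start no sense segment was called within 0.5 kb in either library, and at the next annotated start, 14.39 kb from the farthest upstream one, the sense segment scored 0.6 and 0.4.

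Upstream of Spi1 the own-strand ratio was lower than over the gene, but the rounding ranges overlapped. In the 13.706 kb between the farthest upstream annotated start and the main start, where enhancers of Spi1 are known, there were 15 own-strand segments in control and 7 with IL-4, at 99.4 and 62.5 per kb (centred log2 ratio -0.79, -1.34 to -0.29). On the opposite strand there were 3 in each library, at 44.8 and 62.4 per kb (0.36, 0.01 to 0.70). At the farthest upstream start a sense segment scored 0.2 and 0.1, and its divergent partner 0.7 and 0.3. Per kb over the 13.706 kb, the own-strand value was thus lower after IL-4 and the opposite-strand one higher, both within 2-fold. By highest score the opposite strand there went the other way (0.6 and 0.4), as did the divergent segment.

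Csf1r, the one receptor in the group, lies on chromosome 18 (61105572-61132149, plus strand, ENSMUSG00000024621.16). Its name was on 29 segments in control and 31 with IL-4. The highest score was 5.6 in control and 4.6 with IL-4, both on a segment 15181 bp into the gene whose midpoint lay in a SINE repeat. Without repeats the highest scores were 2.4 and 2.3. By name the centred log2 ratio was 0.09 (0.07 to 0.12), which became -0.28 without centring. Over the gene the values were 539 and 671 per kb and the ratio 0.20 (0.04 to 0.35). Of 28 control segments in the gene all 28 overlapped one after IL-4, and 20 of these pairs were above and 8 below the centre. Csf1r was thus covered in the same places in both libraries, with 53.2% of its length called in control and 80.7% with IL-4.

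Over 4 equal parts of Csf1r the ratios were 0.49, 0.14, 0.02 and 0.11, and 1.44 (36.9 and 109 per kb) in the 15 kb past the end, from 1 segment in control and 2 with IL-4. The control segment (0.8) and the higher IL-4 segment (1.5) both began within the gene and ran past its end. The other IL-4 segment scored 0.1. The value of 1.44 thus describes mostly segments that cross the gene end. The sense segment at the macrophage start scored 1.4 and 1.0, and the start 4.974 kb upstream had none in either library. On the opposite strand within the gene, 1 segment of 0.3 was called in control and 3 segments, the highest at 0.5, after IL-4. All of them lay in the intron annotated as intron 2, which is known to hold the Csf1r enhancer called FIRE.

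**Figure D4:**
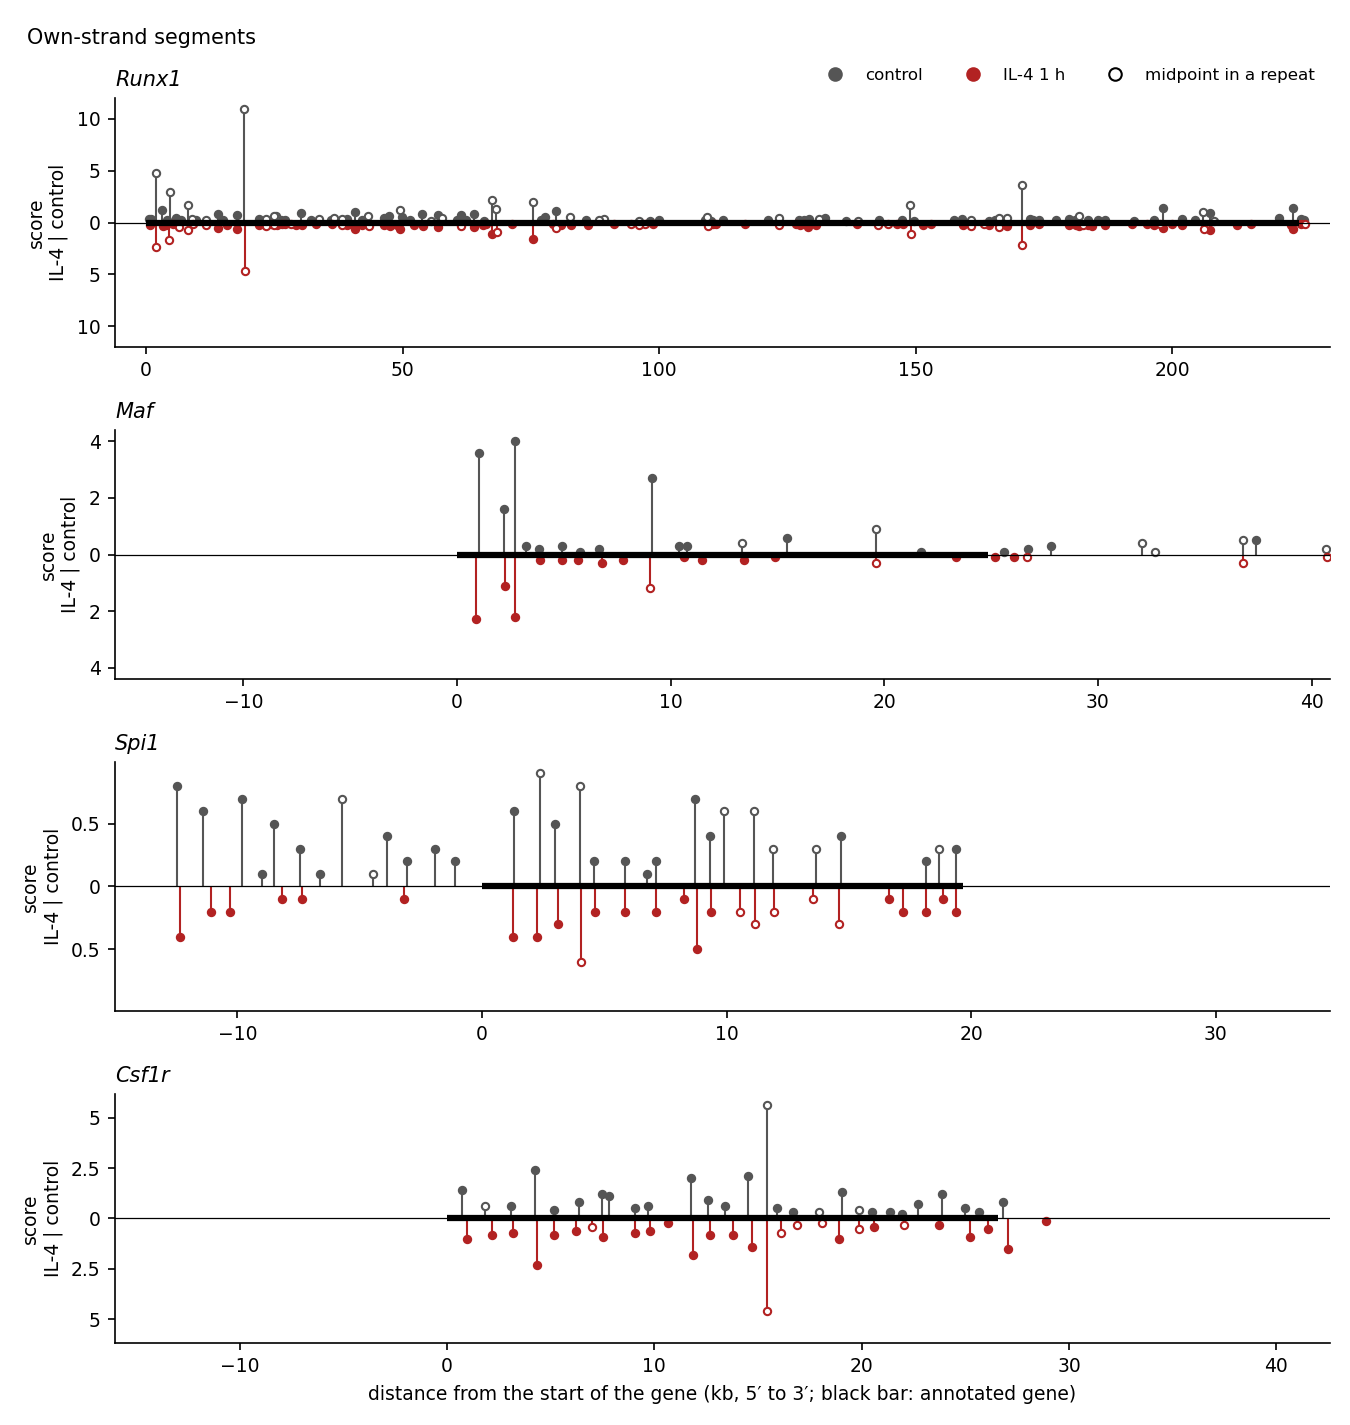
Own-strand segments of Runx1, Maf, Spi1 and Csf1r by distance of their midpoint from the gene's start in kb, with control scores drawn upward, IL-4 scores downward and open circles for midpoints in repeats. Beyond the gene only segments carrying its name are drawn. The tallest Runx1 segment (10.9 and 4.7) is in a repeat, and upstream of Spi1 13 control segments and 6 IL-4 segments carry its name.

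The genes whose gene-body values were nearest to each member's in both libraries, by distance on the log2 scale over 7142 genes, were Snn and Zfp609 for Tfec and Rps3a1 and Bcl6 for Mitf. For the C/EBP genes they were Eef1a1 and Zfp36 (Cebpa), Psap and Apoe (Cebpb), and Msl1 and Abtb1 (Cebpd). For the rest they were Kmt2d and Stxbp2 (Spi1), Atpif1 and Fau (Runx1), Ctsa and C1qc (Maf), and Hist2h2bb and Atf4 (Csf1r). Bcl6, a transcriptional repressor, had 36.7 and 84.7 per kb, close to Mitf at 0.07 log2 units, whereas the nearest gene to Cebpb, Psap, was 0.96 log2 units away. Such nearness over 2 libraries describes levels only.

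**Figure D5:**
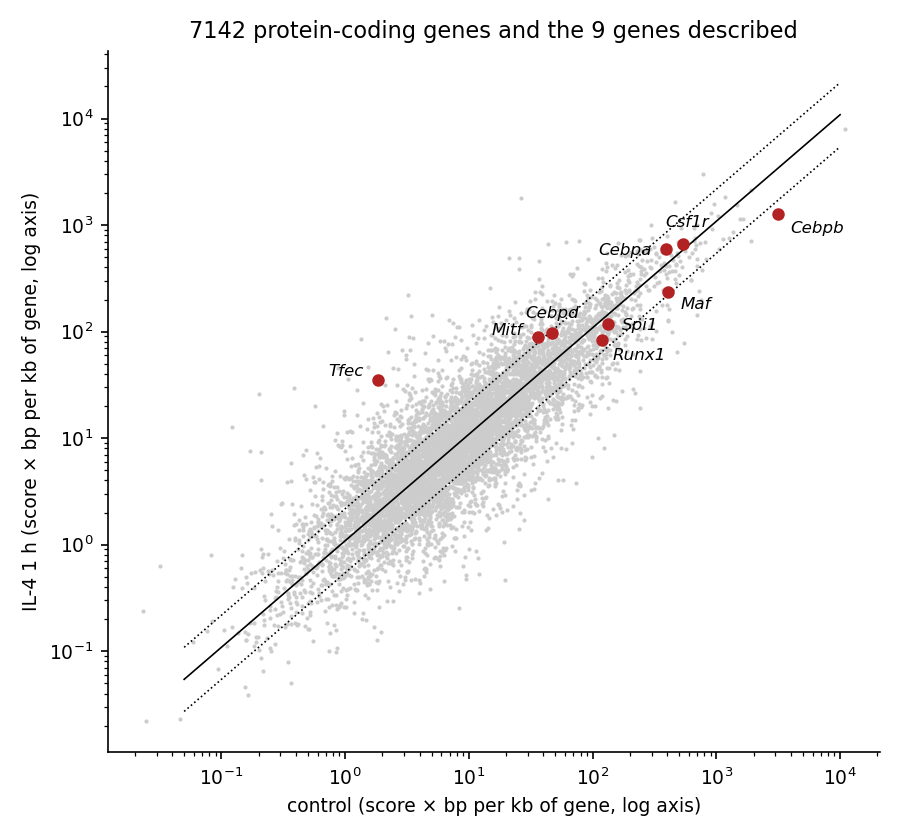
Score times length per kb of gene in control (x) and after IL-4 (y), on log axes, for 7142 protein-coding genes (grey) and the 9 genes described (red), with the median ratio as a solid line and 2-fold either side as dotted lines. Tfec lies above the upper dotted line at 1.86 and 35.2 per kb, with Mitf just above that line and Cebpb below the lower one.

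Relatives and partners of the 9 genes were taken from 7 lists of 68 genes. By highest score 51 had a value in both libraries, of which 3 were at least 2-fold higher and 6 at least 2-fold lower, beside 8.06% and 8.62% of all genes. By gene body 48 had a value in both, with 14 higher and 8 lower, beside 16.7% and 16.9% of all genes. Genes named below for a gene-body value alone were named after these values were seen. Of 8 MiT relatives and partners 0 were higher and 2 lower by either measure. Tfeb, the lysosomal regulator of the family, scored 1.8 in control and 0.4 with IL-4, a centred log2 ratio of -1.79 by name and -1.67 over the gene. Fnip2, a partner of folliculin, scored 5.8 and 1.5 (-1.57 and -1.30). The ratio of Tfe3 was -0.84 by name and 0.13 over the gene.

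Among 12 ETS genes, Etv3 was higher (1.8 and 3.9, centred log2 ratio 1.49), and Fli1 (3.1 and 0.8, -1.58) and Elf2 (1.8 and 0.6, -1.21) were lower. By gene body Elf2 was within 2-fold (-0.65), and 3 of 8 were higher (Etv3 at 1.92, Ets2 at 1.90 and Elf4 at 1.03) and 1 lower (Fli1 at -1.36). Spib and Spic, the closest relatives of Spi1, had no segment in either library. Of the 5 genes on the C/EBP list, not all of them C/EBP factors, none of the 4 with a value passed 2-fold by name. By gene body 1 of 3 was higher (Trib1) and 2 were lower (Cebpg and Cebpz). The rounding ranges of Cebpg (-2.00 to -0.18) and Cebpz (-1.62 to -0.52) reach within 2-fold, and Cebpz had 1 segment in each library. By name the ratio of Trib1 was -0.01 (2.1 and 1.6). Among 7 RUNX genes and partners, Cbfb was lower by name (1.4 and 0.4, -1.43) and within 2-fold by gene body (-0.96). By gene body 0 of 4 were higher and 1 was lower (Tle3, -2.00), and Runx3 had no segment. Among 6 MAF relatives, Maff was higher on scores of 0.1 and 0.2 (1.38, rounding range 0.38 to 2.70), and Nfe2l2, the regulator of oxidative stress genes, was lower (6.5 and 1.6, -1.64). By gene body Nfe2l2 was also lower (-1.10), and Bach1 was higher (29.3 and 69.5 per kb, 1.13), with a rounding range of 0.48 to 1.72 that reaches below 2-fold. By name Bach1 was within 2-fold and in the other direction (0.6 and 0.4, -0.21).

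The list of 16 genes for M-CSF receptor signalling also held Csf3r, Csf2ra and Csf2rb, receptor genes of other colony-stimulating factors. Of the 16, 13 had a value in both libraries. By name 1 was higher (Csf3r, the receptor for G-CSF, 3.9 and 9.4, centred log2 ratio 1.65) and 0 lower. By gene body 7 of 13 were higher and 1, Plcg2, was lower, beside 16.7% and 16.9% of all genes, with a list median of 1.12 beside 0. The 7 included Csf3r and Csf2rb (1.16), so the count and the median are not of M-CSF receptor signalling alone. After Csf3r (2.27) the largest of the 7 were the ubiquitin ligase Cbl (34.8 and 147 per kb, 1.96) and the adaptor Shc1 (3.76 and 14.6 per kb, 1.84, on 1 segment of 0.2 in each library). The ligand Csf1 had 1 segment of 0.1 after IL-4 and none in control, and the other ligand Il34 had none. Of 14 other myeloid regulators 9 had a value by name and none passed 2-fold. By gene body Ikzf1, which encodes IKAROS, was higher at 17.3 and 139 per kb (2.89), 1 of 7.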

How the data were processed

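GRO-seq libraries of control and IL-4-treated BMDMs, 1 per condition, were compared. The authors aligned reads to mm10 and called transcribed segments in each library with HOMER. The submitters' processing notes list BWA 0.7.10, SAMtools 0.1.19 and HOMER 4.2. The deposited value is a score per segment, rounded to 1 decimal, whose scaling is not given in the sources used here. Depth was therefore unknown and no interval that needs it was given. In the IL-4 library 13 segments were listed at 0.0 and gave no ratio.

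A gene's value was the highest score among segments carrying its name, or score times overlapped length on its own strand per kb of gene (GENCODE M21 basic transcripts, an extent chosen after the data were seen). Log2 ratios were centred on the median gene (log2 -0.38 by name and 0.12 by gene body), and 2-fold was the threshold. Same-strand segments sharing at least 1 bp between libraries were paired. Named genes were the members, the 2 largest ratios by highest score per direction past 2-fold in each list, and the 2 genes nearest to each member by Euclidean distance. Genes named for a gene-body value alone were chosen after their values were seen. Members and lists were chosen with earlier results of these data known. Alternatives were other gene values, filters, centring and gene extents. Scripts used Python 3.11.15, numpy 2.4.6 and pandas 2.3.3 and were tested on simulated data. One gene of the MAF list is not reported here.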

Additional observations from a re-analysis of the deposited data

How the results depend on the processing

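Counts of members at least 2-fold higher or lower by name (1 and 0, median 0.09) were 2 and 1 (median 0.25) with score times length of named segments, 2 and 1 (median 0.20) with score times length over the gene, 0 and 3 (median -0.58) with the segment nearest the TSS, and 1 and 1 (median -0.28) without centring. They were 2 and 0 with the highest own-strand score, 2 and 0 (median 0.51) without repeat segments, and 1 and 0 (median 0.20) for genes of at least 0.5 in 1 library. In the nearest-TSS setting the segments compared lay on different strands for Cebpa, Cebpd and Runx1 (0.42) and at different starts for Mitf, and over all genes 11.0% were higher and 27.7% lower against 8.06% and 8.62%. The share of all genes past 2-fold was also over 1.5 times larger by sums of scores (13.6% and 13.7%), by score times length of named segments (17.2% and 16.9%) and with missing values set to 0.1 (13.1% higher), and lower with 0.1 added to both values (5.02% and 5.18%). By gene body the 2 higher and 1 lower members stayed 2 and 1 under all 5 alternatives, 1 of them (all GENCODE transcripts) added after seeing the data. Tfec was positive under all 11 alternatives by name, from 0.42 to 4.48, and from 3.72 to 5.28 over the gene. Cebpd had no gene-body value at scores of at least 0.3. With 1 library per condition no replicate could be left out. No paired analysis was possible because each condition had 1 library. The unknown depth and the 0.1 step of the score limit low values most, such as those of Cebpd and of the start sites.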
